A study of Mus musculus with 9 samples.

Results

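The 9 genes described here make, bind and receive retinoic acid, and each was found at a locus of its own among the 24138 loci of the RNA-seq table. They are *Rdh10*, *Aldh1a1*, *Aldh1a2* and *Aldh1a3* for synthesis, *Crabp1* and *Crabp2* for binding, and *Rara*, *Rarb* and *Rarg* for reception. They were chosen by name, for their place in the pathway, with earlier results of these data known. RNA came from whole mouse kidneys at embryonic day E15.5, with 3 kidneys and 3 libraries of each of 3 genotypes from 3 crosses of *Ntn1fl/fl* with *Foxd1GC/+;Ntn1fl/+* mice. *Foxd1GC/+;Ntn1fl/fl* (homozygous, MUT) and *Foxd1GC/+;Ntn1fl/+* (heterozygous, HET) kidneys both carry the *Foxd1* GFP-Cre allele, a knock-in that takes the place of 1 *Foxd1* copy and drives recombination in stromal progenitors and their descendants. *Ntn1fl/fl* (wild type, WT) kidneys carry no Cre, and all 3 genotypes carry at least 1 floxed *Ntn1* allele. MUT against HET holds the *Foxd1* knock-in constant, whereas MUT against WT and HET against WT do not. The 3 kidneys of a genotype are described as biological replicates, but no label ties a kidney to an embryo or a cross, so the p-values measure the spread between these libraries.

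Retinoic acid is made from retinol in a pair of oxidation steps. RDH10 oxidises retinol to retinal, and the retinal dehydrogenases ALDH1A1, ALDH1A2 and ALDH1A3 oxidise retinal to retinoic acid. CRABP1 and CRABP2 bind retinoic acid in the cytoplasm: CRABP2 can hand it on to nuclear receptors, and CRABP1 is usually linked to its turnover by CYP26 hydroxylases. The receptors RARα, RARβ and RARγ act as heterodimers with RXRs on response elements near their target genes. In the embryonic kidney, ALDH1A2 is known from stromal cells and ALDH1A3 from the ureteric epithelium, and retinoic acid made by the stroma keeps *Ret*, the GDNF receptor, on in the ureteric bud.

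The classical response element is a direct repeat, and it is best known from the promoters of *Rarb*, which retinoic acid induces through its own receptors, and of *Cyp26a1*, which encodes the enzyme that clears it. The letters GTTCA repeated after 6 bases (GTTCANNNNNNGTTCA, read on both strands) was searched for in the RefSeq promoter windows of GRCm38.p6, which run from 250 bases before to 50 bases after a gene's start. Of the 9 genes, 6 have such a window (*Aldh1a1*, *Aldh1a2*, *Rara*, *Rarb*, *Rarg* and *Crabp1*), and *Rarb* alone among them holds a match. Of 14 genes listed here as responsive to retinoic acid that have a window, *Rarb* and *Cyp26a1* hold one, where 24 of all 27025 genes with a window do (0.0888%). The letters are those of the element best known from *Rarb* and *Cyp26a1*, so finding them there was fixed in advance and tests nothing. The upstream 250 bases of these promoters follow as the sequences through which the pathway is best known to act, with the repeated letters in capitals.
Rarb: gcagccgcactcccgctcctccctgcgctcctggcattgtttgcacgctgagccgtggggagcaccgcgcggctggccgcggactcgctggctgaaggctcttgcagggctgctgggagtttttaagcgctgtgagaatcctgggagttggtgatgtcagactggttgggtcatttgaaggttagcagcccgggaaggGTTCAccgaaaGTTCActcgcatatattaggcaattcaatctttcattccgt
Cyp26a1: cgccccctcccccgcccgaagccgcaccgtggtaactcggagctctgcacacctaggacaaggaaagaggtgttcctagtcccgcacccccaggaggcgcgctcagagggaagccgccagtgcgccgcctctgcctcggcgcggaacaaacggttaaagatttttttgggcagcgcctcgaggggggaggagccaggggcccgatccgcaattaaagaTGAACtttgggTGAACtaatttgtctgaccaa
The *Rarb* stretch is chr14:16575477-16575726 on the minus strand, and its match covers the bases 52 to 37 before the start. The *Cyp26a1* stretch is chr19:37697558-37697807 on the plus strand, and its match reads on the opposite strand, 32 to 17 bases before the start. A match describes these letters and is not a measured site. The levels of both genes are given with the receptors and the hydroxylases.

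Expression was given as FPKM, the fragments per kilobase of transcript scaled to the size of the library, so that levels can be set side by side between genes. Read numbers are unknown, and summed FPKM ran from 453753 to 545598. *Ntn1*, the targeted gene, was at 17.8 to 28.9 FPKM in WT, 12.02 to 16.5 in HET and 10.8 to 16.5 in MUT, so that the libraries of HET and MUT overlapped. *Foxd1* was at 25.8 to 33.7 FPKM in WT, 20.2 to 21.7 in HET and 22.5 to 24.8 in MUT. All 10 stroma, 7 nephron progenitor and 8 ureteric markers searched were above 0, which leaves the tissue label uncontradicted. Library HET-2 stood apart: 8 liver markers summed to 727 FPKM there and to 29.3 to 52.3 in the other 8 libraries. Neuron and glia markers summed to 28.4 FPKM in HET-2 and to 9.47 to 15.6 in the other 8, and red cell markers to 1538 and to 787 to 936. Libraries also differed with transcript length: the median log2 deviation of 2118 loci over 5000 nt minus that of 487 loci under 1000 nt was 0.43 in WT-1 and 0.47 in MUT-1, and lay between -0.28 and 0.12 in the other 7. Of the 9 genes, *Crabp1* (802 nt) and *Crabp2* (931 nt) fall in the short class and the others are 2264 to 3587 nt long.

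*Aldh1a2* was by far the most abundant of the 9 genes, at a mean of 158.7 FPKM over the 9 libraries and at the 97.7th percentile of loci above 0. *Crabp2* followed at 40.5, *Crabp1* at 30.6, *Rarb* at 26.8, *Rdh10* at 23.2, *Aldh1a3* at 20.05, *Rarg* at 17.8, *Rara* at 13.2 and *Aldh1a1* at 3.26 FPKM. In this order the ranges over 9 libraries were separate only between *Aldh1a2* and *Crabp2*, a ratio of means of 3.92, and between *Rara* and *Aldh1a1*, a ratio of 4.05. Ranges of the other neighbours overlapped. Within a library, *Crabp2* was nonetheless above *Crabp1*, and *Rarg* above *Rara*, in 9 of 9 libraries, whereas *Crabp1* was above *Rarb* in 6 of 9.

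**Figure D1:**
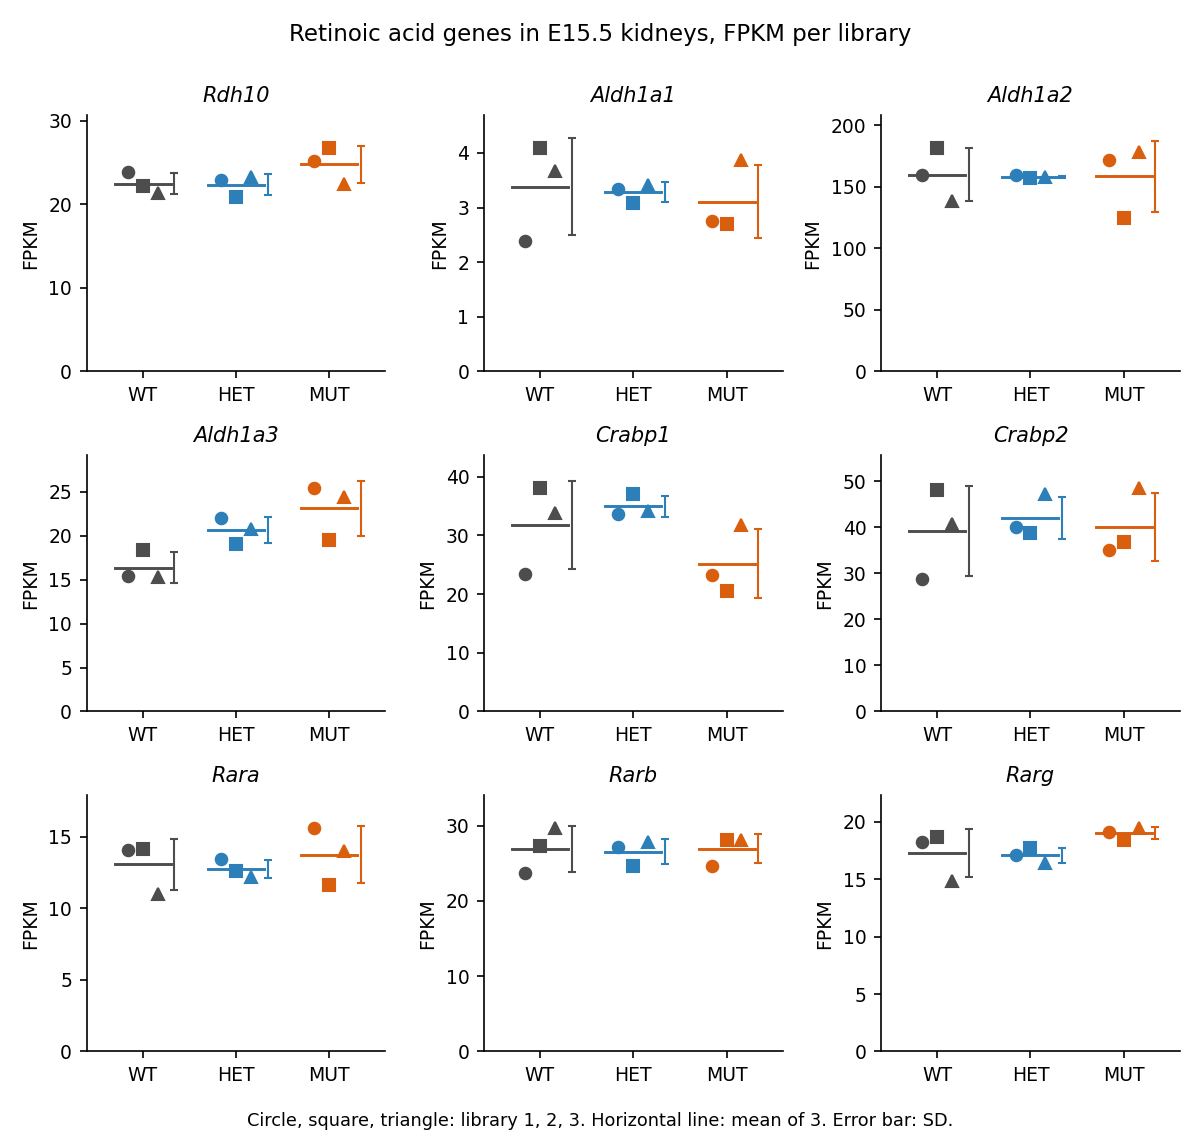
FPKM of the 9 retinoic acid genes (vertical axes, linear from 0) in the 3 libraries of each genotype, with the mean as a horizontal line and the s.d. as an error bar. The 3 MUT libraries lie below the 3 HET libraries for *Crabp1* and above them for *Rarg*, and all 6 HET and MUT libraries lie above the 3 WT libraries for *Aldh1a3*.

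Between genotypes, *Crabp1* was lower in MUT than in HET, *Aldh1a3* was higher in both Cre-carrying genotypes than in WT, and *Rarg* was slightly higher in MUT than in HET, each with no overlap of the 3 libraries of one group with the 3 of the other. None of these differences passed correction over all loci. Loci that averaged 5 FPKM or more in 1 of the groups entered the limma comparison on log2(FPKM + 1), which left out *Aldh1a1*, and at an adjusted p under 0.05 (Benjamini-Hochberg) limma called 0 of 10081 loci (0.0%) for MUT against HET, 0 of 10096 (0.0%) for MUT against WT and 0 of 10105 (0.0%) for HET against WT. At an unadjusted p under 0.05 it gave 371 higher and 265 lower loci (3.68% and 2.63%), 31 and 34 (0.307% and 0.337%), and 55 and 53 (0.544% and 0.524%). *Crabp1* was among the lower loci of the first comparison, and *Aldh1a3* among the higher loci of the other comparisons. In whole kidney, fewer cells of a type and less RNA per cell cannot be told apart.

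*Rdh10*, which carries out the first and rate-limiting oxidation, lies on chromosome 1 (16105881-16132550, build mm10). It was at 23.9, 22.1 and 21.4 FPKM in the WT libraries (1 to 3, in this order throughout), 22.9, 20.9 and 23.3 in those of HET, and 25.3, 26.7 and 22.4 in those of MUT. MUT-1 and MUT-2 were above every other library, and MUT-3 fell within the HET range. The log2 fold change of MUT against HET was 0.14 (standard error 0.11, 95% interval -0.10 to 0.38, adjusted p = 0.764 from limma).

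*Aldh1a2*, the retinal dehydrogenase of the stroma, lies on chromosome 9 (71215788-71296243). Its FPKM was 159, 181 and 139 in WT, 159, 157 and 158 in HET, and 172, 125 and 179 in MUT. The HET libraries were almost equal (158±0.984, mean±s.d., n=3), while those of WT (160±21.4) and MUT (158±29.1) spread to both sides of them. The log2 fold change was -0.01 for MUT against HET (95% interval -0.34 to 0.32) and -0.02 for MUT against WT (-0.42 to 0.38), so that changes of these sizes in either direction remain possible.

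*Aldh1a1* encodes the retinal dehydrogenase with the lowest level here. It lies on chromosome 19 (20601981-20643462) and was at 2.38, 4.09 and 3.67 FPKM in WT, 3.35, 3.08 and 3.42 in HET, and 2.76, 2.69 and 3.87 in MUT. The groups overlapped, and exact two-sided permutation tests gave p = 0.8 for MUT against HET and 0.9 for MUT against WT and for HET against WT. Its close paralog *Aldh1a7*, at 4.02 FPKM in HET and 4.16 in MUT on average, could share reads with it, so its level is uncertain.

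*Aldh1a3*, the retinal dehydrogenase of ureteric epithelium, lies on chromosome 7 (66390892-66427477). Its FPKM was 15.4, 18.4 and 15.3 in WT, 22.0, 19.1 and 20.7 in HET, and 25.4, 19.6 and 24.5 in MUT. Every HET and MUT library was above every WT library, and HET and MUT overlapped. Group means were 16.4±1.76 in WT, 20.6±1.48 in HET and 23.1±3.13 in MUT (mean±s.d., n=3 each), which made MUT 1.41-fold and HET 1.26-fold of WT. Exact permutation tests gave p = 0.1 in both cases, which is the lowest value possible with 3 against 3, and 0.675 after adjustment over the 27 such tests of the 9 genes. In limma the log2 fold change was 0.47 for MUT against WT (standard error 0.14, interval 0.17 to 0.77, adjusted p = 1.00) and 0.32 for HET against WT (standard error 0.11, interval 0.07 to 0.57, adjusted p = 0.998), and 0.15 for MUT against HET (interval -0.11 to 0.42, adjusted p = 0.765).

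By unadjusted p, *Aldh1a3* was at rank 17 of 10096 for MUT against WT and at rank 47 of 10105 for HET against WT. Both comparisons share the WT libraries. Libraries did not overlap in the higher direction for 1.32% of loci in MUT against WT and 2.15% in HET against WT, and 24 of 9978 loci (0.241%) had all 6 HET and MUT libraries above all 3 WT libraries. The log2 fold change of MUT against WT stayed between 0.40 and 0.58 when any 1 library was left out. Ureteric markers were given beside it because this gene is known from that epithelium. The 8 markers summed to 204 to 222 FPKM in WT, 214 to 240 in HET and 225 to 250 in MUT. For MUT against WT, 7 of 8 had a log2 fold change above 0 (48.7% of all loci did), with a median of 0.13 and 0 past the adjusted threshold. For HET against WT it was 6 of 8 (52.4% of all loci), with a median of 0.04. All 7 nephron progenitor markers also lay above 0 for MUT against WT, with a median of 0.11. *Krt19*, an epithelial keratin on the mesothelium list, was at 18.0 to 21.7 FPKM in WT, 24.4 to 33.8 in HET and 25.1 to 33.1 in MUT, whereas *Gpm6a*, the other mesothelium marker that was tested, was at 8.02 to 11.7 in WT, 7.06 to 7.72 in HET and 7.10 to 11.8 in MUT. The 5 mesothelium markers found summed to 30.3 to 35.4 FPKM in WT, 36.2 to 45.9 in HET and 36.1 to 45.8 in MUT. *Krt19* made up most of this sum in every library, so the sum largely repeats that gene and is no separate reading of mesothelium. The 6 urothelium markers summed to 13.1 to 21.0 FPKM in WT, 14.8 to 23.5 in HET and 15.7 to 28.7 in MUT, which overlapped. The part of other cells in the *Aldh1a3* difference was not tested.

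Set against its family, *Aldh1a3* made up 8.69%, 9.04% and 9.74% of the summed *Aldh1a1*, *Aldh1a2* and *Aldh1a3* FPKM in WT, 11.9%, 10.6% and 11.4% in HET, and 12.7%, 13.3% and 11.8% in MUT. The share was higher in all 6 HET and MUT libraries than in WT (exact permutation p = 0.1 for each, the smallest possible, and 0.343 adjusted over the 24 tests of family sums and shares), and overlapped between HET and MUT (p = 0.2). *Aldh1a2* held 84.9% to 90.0% of the sum in every library. The sum itself ran from 147 to 207 FPKM, both in MUT, and its groups overlapped (exact permutation p = 1.0 for MUT against HET, 0.9 for MUT against WT).

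**Figure D2:**
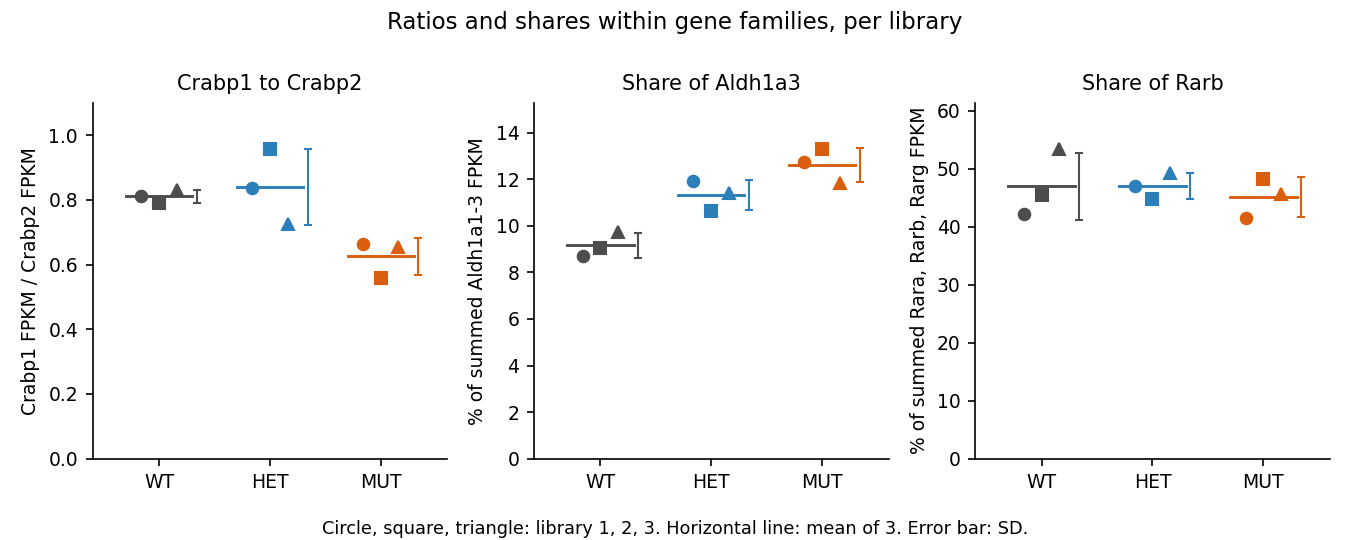
Per-library ratio of *Crabp1* to *Crabp2* FPKM, share of *Aldh1a3* in the summed *Aldh1a1*, *Aldh1a2* and *Aldh1a3* FPKM, and share of *Rarb* in the summed *Rara*, *Rarb* and *Rarg* FPKM (percent), by genotype, with the mean and s.d. of 3 libraries. The *Crabp1* to *Crabp2* ratio is at most 0.663 in MUT and at least 0.724 elsewhere, the *Aldh1a3* share is at most 9.74% in WT and at least 10.6% elsewhere, and the *Rarb* shares overlap.

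*Crabp1*, which encodes the binding protein linked to retinoic acid turnover, lies on chromosome 9 (54764747-54773110). It was at 23.4, 38.0 and 33.8 FPKM in WT, 33.6, 37.0 and 34.2 in HET, and 23.2, 20.6 and 31.8 in MUT. All 3 MUT libraries were below all 3 HET libraries, with MUT-3 only slightly so, whereas WT-1 fell among the MUT values. Means were 31.7±7.53 in WT, 34.9±1.81 in HET and 25.2±5.86 in MUT (mean±s.d., n=3 each), and MUT was 0.721-fold of HET. The log2 fold change of MUT against HET was -0.48 (standard error 0.15, interval -0.80 to -0.15, unadjusted p = 0.00791, adjusted p = 0.738 from limma), at rank 70 of 10081, and the exact permutation test gave p = 0.1, the smallest possible (0.675 adjusted over 27). Libraries did not overlap in the lower direction for 4.5% of loci in this comparison. The value was -0.44 without HET-2, -0.35 without MUT-2 and -0.65 without MUT-3 (adjusted p = 0.999, 0.974 and 0.194).

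Smooth muscle markers lay in the same direction as *Crabp1* in this comparison. The 6 markers, all above 0, summed to 113 to 144 FPKM in MUT, 140 to 192 in HET, with the highest sum in HET-2, and 117 to 141 in WT. All 5 that were tested had a log2 fold change below 0 for MUT against HET, with a median of -0.37, where 45.9% of all loci lay above 0. *Actg2* and *Myh11* met the 5 FPKM minimum only through HET, at means of 11.4 and 6.37 FPKM against 4.71 and 3.88 in MUT. Entry by that route favours a lower value in MUT, so these genes add no support. Of the 5 tested, 3 had separate libraries, among them *Actg2* and *Myh11*, where 4.5% of all loci were separately lower. At an unadjusted p under 0.05 from limma, 4 were lower (2.63% of all loci were), and 0 passed the adjusted threshold. Of 9 tested stroma markers, 5 lay above 0 and 4 below, with a median of 0.02. The 6 tested liver markers and the 3 tested red cell loci, which are those of *Alas2* and *Hba-a1*, also all lay below 0. Every tested liver marker but *Afp* met the 5 FPKM minimum only through HET, so these liver markers add no support either. HET-2 was far above the other libraries for them, with *Alb* at 244 FPKM there and at 1.83 and 4.77 in HET-1 and HET-3. The part of smooth muscle or other cells in the *Crabp1* difference was not tested.

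Against WT, *Crabp1* in MUT had a log2 fold change of -0.32 (interval -0.77 to 0.14, adjusted p = 1.00) and the libraries overlapped. That value depended on single libraries: it was -0.18 without WT-2, -0.19 without MUT-2, -0.49 without MUT-3 and -0.52 without WT-1. WT-1 and MUT-1, the libraries with the strongest deviation with transcript length, were both low for this short transcript. With each library corrected for GC content and transcript length, a step added after the data were seen, the log2 fold change was -0.35 for MUT against HET (standard error 0.14, adjusted p = 0.560) and -0.32 for MUT against WT (adjusted p = 0.992).

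*Crabp2*, whose protein delivers retinoic acid to receptors, lies on chromosome 3 (87948692-87953372). It was at 28.8, 48.1 and 40.7 FPKM in WT, 40.2, 38.7 and 47.2 in HET, and 35.0, 36.8 and 48.5 in MUT. The groups overlapped, with the lowest value in WT-1 and the highest in MUT-3. Its log2 fold change of MUT against HET was -0.08 (interval -0.39 to 0.24, adjusted p = 0.899) and turned to 0.10 with the GC and length correction, so no direction is given.

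Both binding proteins have short transcripts, and were also compared by their ratio within a library. *Crabp1* was 0.811, 0.790 and 0.831 of *Crabp2* in WT, 0.838, 0.956 and 0.724 in HET, and 0.663, 0.559 and 0.655 in MUT. The 3 MUT libraries were below all 6 others, and WT and HET overlapped. Exact permutation tests gave p = 0.1, the smallest possible, for MUT against HET and for MUT against WT (0.343 adjusted over 24 tests), and 0.7 for HET against WT. Of 9977 loci set against *Crabp2* in this way, 14 (0.14%) had all 3 MUT ratios below the 6 others. Most of these loci have longer transcripts, and only 487 loci were under 1000 nt. *Crabp2* was itself low in WT-1 and MUT-1, at 28.8 and 35.0 FPKM, which raises the ratios of longer loci there. This share is therefore no fair background for a short transcript such as that of *Crabp1*. The ratio was taken up after earlier results of these data were known, so it is a description of these libraries.

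**Figure D3:**
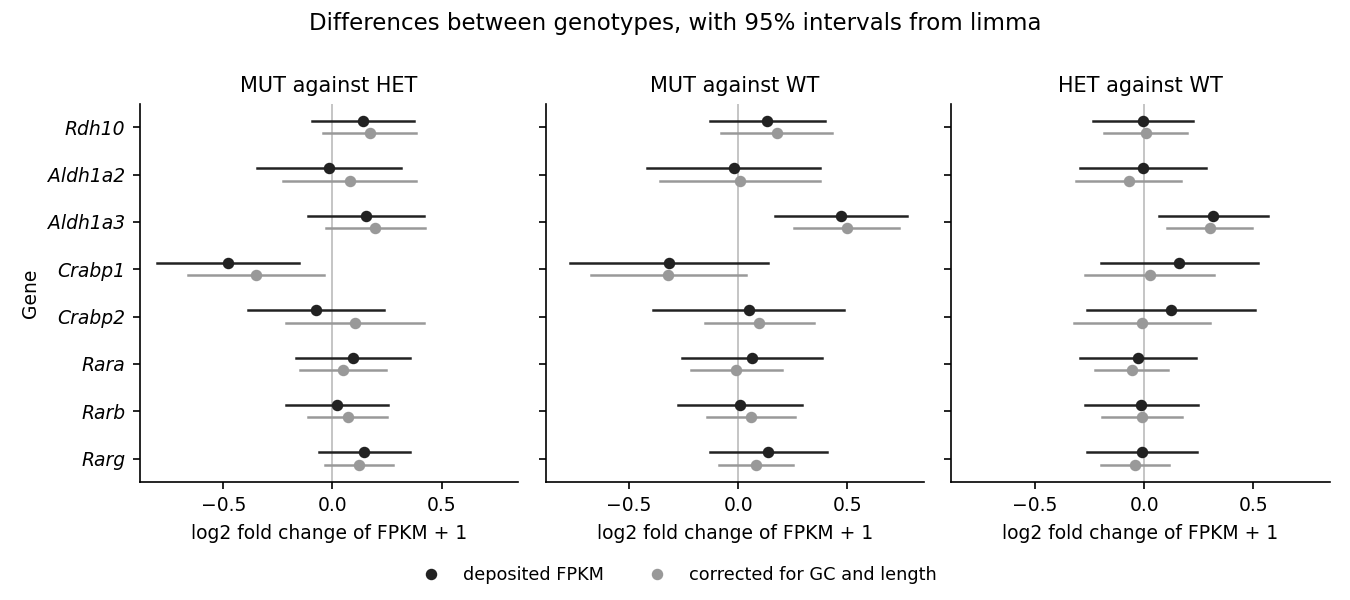
Log2 fold changes of FPKM + 1 (points, horizontal axes) with 95% intervals from limma (lines) for the 8 tested genes in the 3 comparisons, from the deposited FPKM (black) and after correction for GC content and transcript length (grey). The intervals that leave out 0 are those of *Crabp1* for MUT against HET and of *Aldh1a3* for MUT against WT and for HET against WT, under both treatments.

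*Rarb* was the most abundant of the retinoic acid receptors. Its locus in the deposited table spans 16430839 to 17082331 on chromosome 14, and contains the promoter shown above. FPKM was 23.7, 27.3 and 29.6 in WT, 27.1, 24.6 and 27.8 in HET, and 24.7, 28.0 and 28.1 in MUT. The groups covered the same range, with log2 fold changes of 0.02 for MUT against HET (interval -0.21 to 0.25) and 0.01 for MUT against WT (interval -0.28 to 0.29). *Rarb* is a textbook readout of retinoic acid signalling, and both intervals are narrower than those of *Aldh1a2*.

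*Rarg*, a receptor of mesenchyme and cartilage in the embryo, lies on chromosome 15 (102234937-102257522). It was at 18.2, 18.7 and 14.8 FPKM in WT, 17.1, 17.7 and 16.4 in HET, and 19.1, 18.4 and 19.4 in MUT. The 3 MUT libraries were above the 3 HET libraries by a narrow margin, while WT-1 and WT-2 lay between or among them. Means were 19.0±0.514 in MUT and 17.1±0.665 in HET, a ratio of 1.11, with an exact permutation p of 0.1, the smallest possible (0.675 adjusted over 27). The log2 fold change was 0.15 (interval -0.06 to 0.35, adjusted p = 0.743 from limma), and 5.19% of loci had separate libraries in this direction.

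*Rara*, the most broadly expressed of the receptors, lies on chromosome 11 (98937695-98974942). Its FPKM was 14.1, 14.1 and 11.02 in WT, 13.4, 12.6 and 12.2 in HET, and 15.6, 11.6 and 14.0 in MUT. The groups overlapped, and the log2 fold change of MUT against HET was 0.09 (interval -0.17 to 0.36, adjusted p = 0.846). Summed over the 3 receptors, FPKM was 59.4, 58.1 and 61.5 in MUT, above the 57.6, 55.0 and 56.4 of HET by a small margin (exact permutation p = 0.1, the smallest possible, 0.343 adjusted over 24), and WT (56.0, 60.1 and 55.5) overlapped both. *Rarb* made up 41.5% to 53.4% of that sum, and its share overlapped among genotypes.

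Counted together for MUT against HET, 5 of the 8 tested genes had a log2 fold change above 0, with a median of 0.06, where 45.9% of all loci lay above 0 and their median was -0.02. *Rarg* was separately higher and *Crabp1* separately lower, where 9.69% of loci were separate in either direction. For MUT against WT, 6 of 8 were above 0, against 48.7% of all loci, and for HET against WT 3 of 8, against 52.4%.

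The wider retinoid pathway was described with 8 lists of 69 genes, of which 68 were found and 48 had at least 5 FPKM in MUT or HET. None had an adjusted p under 0.05 for MUT against HET, 4 were higher and 3 lower at an unadjusted p under 0.05 (3.68% and 2.63% of all loci), and 24 lay above and 24 below 0. Libraries of both genotypes were separate for 6 higher genes, among them *Rarg*, *Rxra*, *Ncoa1*, *Crebbp* and *Zfp703*, and for 4 lower ones (*Crabp1*, *Rdh13*, *Hoxb4* and *Hoxd4*), where 5.19% and 4.5% of all loci were. In MUT against WT, *Aldh1a3* and *Tgm2* were separately higher (1.32% of all loci were) and *Med1* separately lower among 46 tested genes (1.34% of all loci were), and in HET against WT *Aldh1a3*, *Rbp4* and *Tgm2* were separately higher among 47 (2.15% of all loci were).

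Genes upstream of *Rdh10*, for uptake and storage of retinol, had a median log2 fold change of -0.11 for MUT against HET over 6 tested genes. The plasma retinol carriers *Rbp4* and *Ttr* had the largest differences, at -1.44 and -1.48. Both met the 5 FPKM minimum only through HET, and the median includes them by that route. The differences of *Rbp4* and *Ttr* came from 1 library: *Rbp4* was at 41.6 FPKM in HET-2 and at 0.784 to 1.71 in the other 8, and *Ttr* at 52.0 in HET-2 and at 0.732 to 2.56 in the other 8. HET-2 is the library with the high liver markers, among them *Alb*.

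Among 8 tested oxidoreductases, the median was -0.09 and 2 lay above 0. *Dhrs3*, which encodes a reductase that turns retinal back into retinol, was at 60.7, 53.9 and 49.0 FPKM in HET and 39.4, 41.2 and 54.2 in MUT, a log2 fold change of -0.28 (standard error 0.14, adjusted p = 0.738). *Rdh13*, a mitochondrial retinol dehydrogenase gene, was at 13.4, 13.1 and 13.7 in HET and 11.02, 10.4 and 12.99 in MUT (-0.22, adjusted p = 0.738), with MUT-3 only just below HET-2. All 3 retinoic acid binding protein genes lay below 0 for MUT against HET, *Fabp5* at -0.24 (adjusted p = 0.738) beside *Crabp1* and *Crabp2*, of which *Crabp2* turned with the GC and length correction.

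The hydroxylases remove retinoic acid. *Cyp26b1*, the more abundant family member here, was at 5.41, 4.46 and 5.75 FPKM in HET and 7.73, 4.61 and 7.69 in MUT, and overlapped. *Cyp26a1*, whose promoter is shown above, was listed at 0.821, 1.00 and 0.866 FPKM in WT, 0.821, 1.00 and 0.799 in HET, and 0.700, 0.670 and 0.634 in MUT. The 3 MUT libraries were below all 6 others, as were those of 61 of 3874 loci (1.57%) with a mean of 0.5 to 5 FPKM. Without an FPKM minimum, limma gave a log2 fold change of -0.17 for MUT against HET (standard error 0.06, adjusted p = 0.825), and on this scale the change of so low a gene is understated. How many reads stand behind such low values is unknown.

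The RXR partners of the receptors were *Rxra* at 17.9, 19.1 and 18.0 FPKM in HET and 25.8, 23.8 and 19.4 in MUT (log2 fold change 0.30, adjusted p = 0.738), and *Rxrb* at 0.02. All 5 tested receptor genes lay above 0 in MUT against HET, with a median of 0.09, where 45.9% of all loci did. Of 12 coregulators, 10 lay above 0, with a median of 0.20 that became 0.08 with the GC and length correction. The coactivator genes *Ncoa1*, at 3.94, 3.96 and 4.54 FPKM in HET and 6.47, 5.08 and 4.60 in MUT, and *Crebbp*, at 4.72, 5.09 and 6.34 in HET and 9.56, 6.68 and 6.41 in MUT, had separate libraries by a narrow margin. Their log2 fold changes were 0.30 and 0.41 (adjusted p = 0.738 for each from limma). *Ncoa1* averaged 4.15 FPKM in HET and 5.38 in MUT, and so met the 5 FPKM minimum only through MUT.

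Of 16 tested genes known to respond to retinoic acid, 7 lay above 0 and 9 below, with a median of -0.05. *Hoxd4*, a Hox gene with a known response element, was at 23.0, 18.5 and 31.0 FPKM in WT, 23.9, 24.2 and 25.0 in HET, and 18.2, 12.6 and 20.9 in MUT. Its MUT libraries were below the HET libraries and overlapped those of WT (log2 fold change of MUT against HET -0.51, standard error 0.16, adjusted p = 0.738). *Hoxb4* was at 11.9, 10.6 and 10.8 in HET and 9.21, 6.24 and 9.67 in MUT (-0.38, adjusted p = 0.738). *Zfp703*, a transcriptional corepressor gene, had the opposite order, at 14.0, 12.6 and 15.1 in HET and 19.5, 15.4 and 18.3 in MUT (0.32, adjusted p = 0.738), and *Nrip1* had the highest value of the list, at 0.42 with overlapping libraries. *Ret*, the target in the ureteric bud, was at 0.04 (standard error 0.20).

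**Figure D4:**
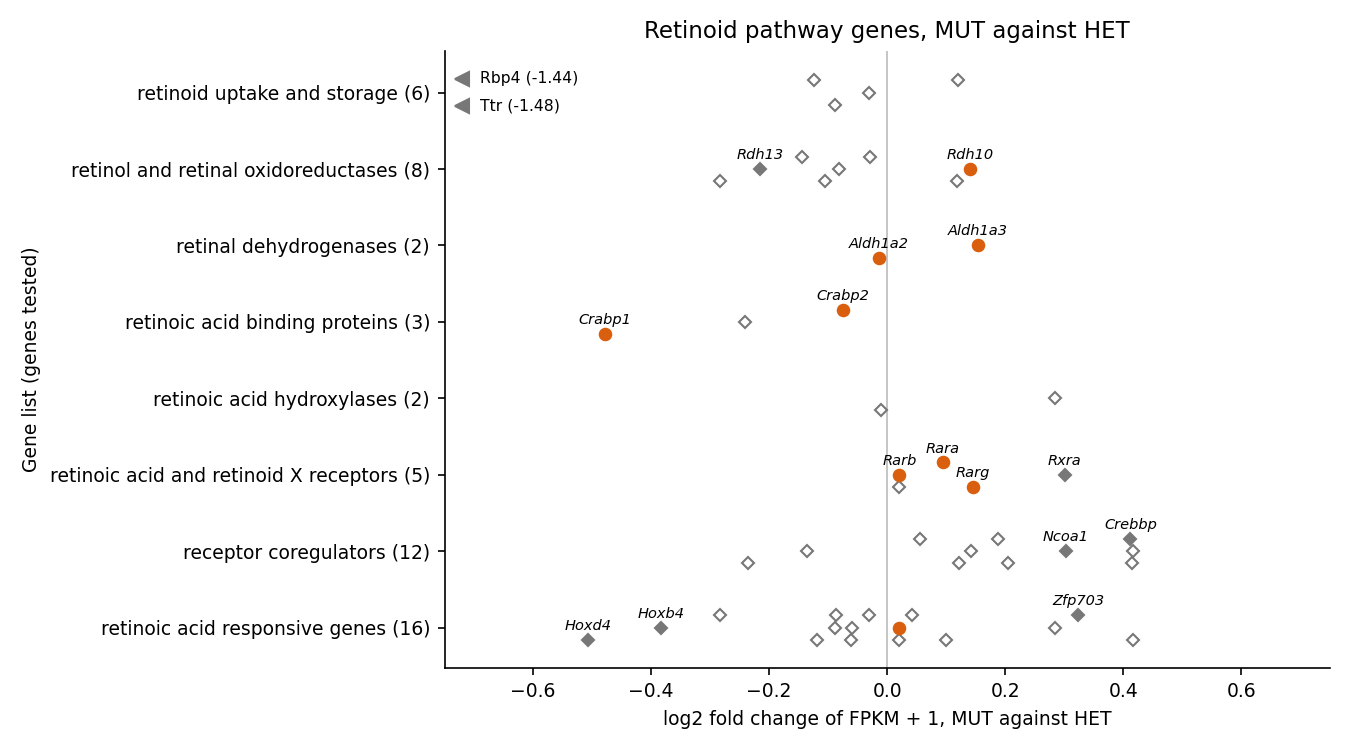
Log2 fold changes of MUT against HET for the 48 tested genes of 8 retinoid lists (rows, with the number tested), of which 1 coregulator is not drawn. Orange circles are the retinoic acid genes described here, filled diamonds other genes whose MUT and HET libraries do not overlap, open diamonds the rest, and the arrows at the left edge stand for *Rbp4* and *Ttr*, which lie beyond the axis and were high in HET-2 alone. Points lie on both sides of 0 in most rows, while all 5 tested receptor genes and most of the coregulators lie to the right.

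Over the 9 libraries, the loci whose log2(FPKM + 1) ran most like that of *Crabp1* were *Sil1* (Pearson r = 0.99), *Dctn6* (0.98) and *Il2rg* (0.98), and 360 of 9977 loci had r above 0.9. The nearest to *Aldh1a2* were *Fbn2* (0.96), *Ap2b1* (0.96) and *Ncapd2* (0.96), with 24 loci above 0.9. The nearest to *Rarb* were *Mphosph10* (0.98), *Impa1* (0.98) and the joint locus of *Dnaja1* and *Mir207* (0.98), with 156. *Aldh1a3* had 5 loci above 0.9, and the nearest were *Sprr2g* (0.95) and *Plet1* (0.95). Among the 9 genes, *Crabp1* ran with *Aldh1a1* (0.81) and *Crabp2* (0.70) and against *Rdh10* (-0.90), and *Aldh1a2* ran with *Rara* (0.81). These values describe 9 libraries, which also differed with transcript length as given above.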

How the data were processed

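Whole E15.5 kidney RNA was sequenced in 9 libraries, 3 per genotype, and samples were grouped by their labels. The deposited values are FPKM that the authors obtained with CuffDiff after STAR alignment to mm10 and Cufflinks assembly, and were used as they are. Tool versions are not given in the sources used here. FPKM are scaled to the library, so depth is unknown and no counting error is given.

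Loci averaging 5 FPKM or more in 1 of the groups were tested on log2(FPKM + 1), a pseudocount of 1, with limma 3.58.1 in R 4.3.3 (lmFit, eBayes with a trend) on the 6 libraries of the 2 genotypes, two-sided, with the Benjamini-Hochberg adjustment over all loci and a threshold of 0.05. A fold change on this scale understates that of low genes. Single genes, sums and shares were compared with exact two-sided permutation tests of the difference in means (Python 3.11.15, NumPy 2.4.6), which cannot go below 0.1. GC content and length were those of the longest GENCODE M21 transcript for 23140 loci (95.87%). Alternatives were median-ratio and quantile scaling, pseudocounts of 0.1 and 3, a minimum of 1 FPKM or none, all 9 libraries in 1 fit, no trend, GC correction by splines with 5 degrees of freedom, a replicate block, and each library left out. The fits were tested on simulated data. The genes and lists were chosen with earlier results of these data known. The other genes named are those at the ends of a list or with separate libraries in a comparison, the 3 loci most like *Crabp1*, *Aldh1a2* and *Rarb*, and *Ntn1* and *Foxd1*. *Krt19*, *Gpm6a*, *Aldh1a7*, *Ret*, *Rxrb*, *Fabp5* and the loci most like *Aldh1a3* were named after their values were seen. Values of some genes that this rule selects are not reported here. Promoter sequences are those of RefSeq.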

Additional observations from a re-analysis of the deposited data

How the results depend on the processing

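Across 13 alternatives and the left-out libraries, 0 values of the 8 tested genes passed the adjusted threshold, and the smallest adjusted p was 0.194 (*Crabp1*, MUT against HET, without MUT-3). Of 312 values under the other alternatives, 287 kept their sign and 25 took the opposite one, and 28 of 144 did with a library left out. *Crabp1*, *Rarg* and *Rdh10* for MUT against HET and MUT against WT, *Rara* for MUT against HET and *Aldh1a3* in all comparisons kept theirs in every run. No locus was called with all libraries. Without 1 library, 0 to 1 loci were called higher and 0 to 2 lower for MUT against HET, 0 to 1 and 0 to 2 for MUT against WT, and 0 to 1 and 0 to 3 for HET against WT.

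The cause of the turned signs was not tested. For MUT against HET, *Aldh1a2* became 5e-04 with median-ratio scaling, 0.0598 with quantile normalization, 0.0301 with the GC correction and 0.0797 with GC and length, and *Crabp2* became 0.10 with the last. For MUT against WT, *Aldh1a2* became 0.0061 and 0.0067 and *Rara* -0.0028 and -0.0091 with GC and with GC and length. For HET against WT, *Rarg* became 0.0044 with quantile normalization, *Rarb* 0.0039 with GC, *Rdh10* 0.0197 and 0.0067 with GC and with GC and length, and *Crabp2* -0.0090 with the last. Leaving out 1 library gave, for MUT against HET, -0.11 to 0.15 for *Aldh1a2*, -0.22 to 0.0129 for *Crabp2* and -0.0298 to 0.0806 for *Rarb*. For MUT against WT it gave -0.12 to 0.14 for *Aldh1a2*, -0.15 to 0.21 for *Crabp2*, -0.0456 to 0.17 for *Rara* and -0.0777 to 0.0790 for *Rarb*. For HET against WT it gave -0.10 to 0.0883 for *Aldh1a2*, -0.14 to 0.0260 for *Rara*, -0.0983 to 0.0585 for *Rarb*, -0.11 to 0.0497 for *Rarg*, -0.0370 to 0.30 for *Crabp1*, -0.0781 to 0.28 for *Crabp2* and -0.0401 to 0.0386 for *Rdh10*.

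Same-numbered libraries showed little shared deviation on average, with mean correlations of -0.13 for MUT against HET, 0.09 for MUT against WT and -0.02 for HET against WT, against 0.07, -0.04 and 0.01 for different numbers. Single pairs varied: MUT-1 with WT-1 was at 0.56 and MUT-2 with WT-2 at -0.26. Among pairs with different numbers, MUT-3 with WT-2 was at 0.49. With the replicate block, 0 loci were called, 303 higher and 191 lower loci had an unadjusted p under 0.05 for MUT against HET, and *Crabp1* stayed at -0.48 (adjusted p = 0.933). The block with the GC correction, or with GC and length, gave the same turned values as those corrections alone. Depth is unknown, and 3 libraries a genotype limit the precision.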
